A study of Mus musculus with 2 samples.

Results

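The 9 genes described here encode the core of insulin receptor signalling: the receptor (Insr), its docking proteins (Irs1 and Irs2), the regulatory and catalytic subunits of the lipid kinase PI3K (Pik3r1 and Pik3ca), the kinases Akt1 and Akt2, and the inhibitors Ptpn1 and Grb14. They were taken by gene name from FPKM tables of mouse liver, where they make up 9 of 37146 genes and 60 of 119289 rows, a row being either 1 annotated transcript or the whole span of a gene. The series compared livers of CD-1 mice, an outbred strain, in 2 RNA-seq libraries. The NP library came from mice that received titanium dioxide nanoparticles (TiO2 NPs) by mouth from a syringe at 50 mg per kg body weight each day, in a suspension treated with ultrasound for 30 min. The Control library came from mice that received phosphate-buffered saline (PBS) in the same volume. The labels state neither age, sex, length of dosing and feeding state nor how many mice each library holds. With 1 library per group no difference has a replicate check and no test was possible, so every value describes these 2 libraries.

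Insulin binding switches on the receptor's tyrosine kinase, which phosphorylates IRS proteins, and these recruit PI3K through its regulatory subunit. The lipid made by PI3K brings AKT to the membrane, where AKT is activated and then restrains the FOXO transcription factors, glycogen synthase kinase and, through other steps, glucose output of the liver. PTP1B, the product of Ptpn1, removes phosphate from the receptor, and GRB14 binds the active receptor and blocks its kinase. Much of this control acts on protein phosphorylation, which RNA levels do not show.

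All 9 genes were expressed in both libraries, and their order of abundance was nearly the same. FPKM counts fragments per kilobase of row, scaled to all mapped fragments of the library, so levels of different genes can be set side by side, and each value carries the 95% interval that the deposited tables give for a single library. In Control the sums over all rows ran from 23.9 FPKM for Akt1 down to 3.20 FPKM for Irs1, and in NP from 21.4 FPKM for Grb14 down to 1.85 FPKM for Irs1. Akt1, Grb14, Akt2 and Insr formed an upper group in both libraries, in which neighbours had overlapping intervals. Pik3r1 lay below them with a separate interval, then Pik3ca and Ptpn1 with overlapping ones, and the docking genes Irs2 and Irs1 came last. Irs2 and Irs1 were separate from each other in both libraries, while Ptpn1 and Irs2 overlapped in Control and not in NP. Among the 10533 genes tested (a mean of at least 1 FPKM), Akt1 stood at percentile 76.6 in Control and 73.6 in NP, Insr at 70.6 in both, Irs2 at 31.9 and 25.0, and Irs1 at 22.9 and 11.9.

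**Figure D1:**
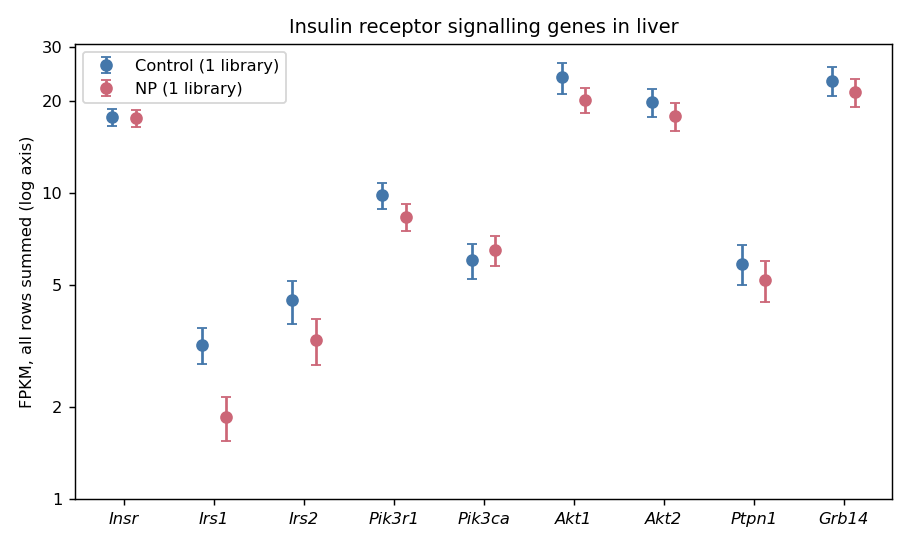
FPKM of the 9 genes (log axis) in Control and NP, 1 library each, with bars for the 95% interval of each library, which hold no spread between animals. Irs1, at 3.20 and 1.85 FPKM, is the gene whose bars do not overlap between libraries.

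Of the 9 genes, 8 were lower in NP (7 when NP was scaled to a median ratio of 0, where Insr was at 0.01, and 7 by the highest row alone) and 1, Pik3ca, was higher, against 54.4% of all tested genes that were lower. The median of the log2 ratio, log2((NP + 1)/(Control + 1)), was -0.15 over the 9 genes and -0.03 over all tested genes. This scale understates differences of low genes. None of the 9 reached 1.5-fold in either direction on it, while 5.33% of all tested genes were 1.5-fold lower and 3.6% 1.5-fold higher. By plain FPKM 1 gene, Irs1, was 1.5-fold lower and 0 were higher, against a background of 7.85% lower and 5.29% higher. Intervals were separate for 1 of 9 genes, again Irs1, which was lower in NP, and for 0 in the higher direction, against 9.58% and 7.73% of tested genes. Among the 6106 genes within the level range of the 9 (a mean of 2.52 to 22.3 FPKM), 55.4% were lower in NP. Of these genes 4.91% were 1.5-fold lower and 3.44% higher on the log2 scale, 6.53% and 4.77% by plain FPKM, and intervals were separate for 9.01% on the lower side and 6.06% on the higher side. For 9 genes, counts of 0 and 1 are near each of these backgrounds.

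**Figure D2:**
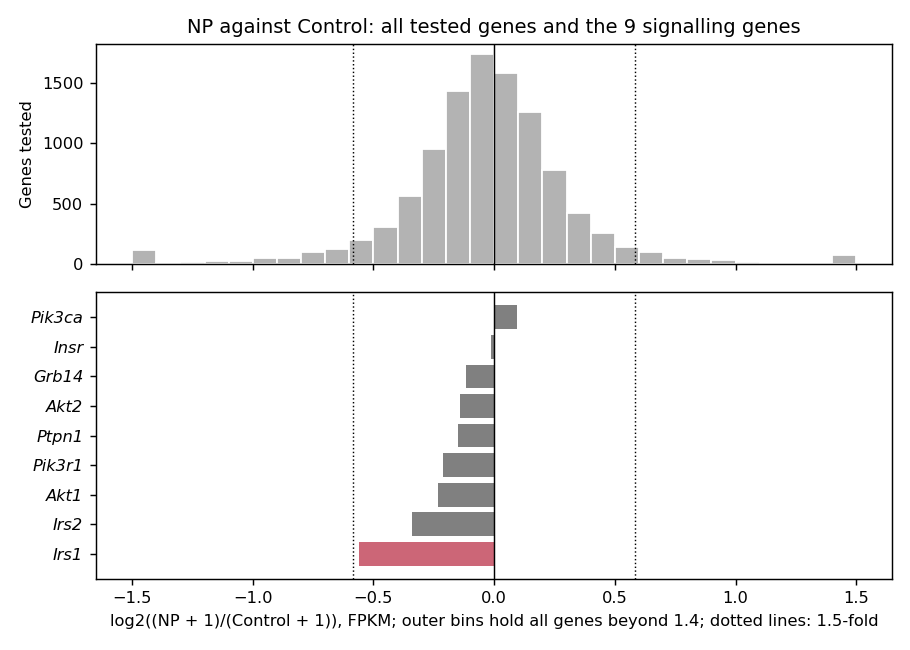
Upper panel, number of tested genes by log2((NP + 1)/(Control + 1)), with all genes beyond 1.4 in the outer bins; lower panel, the same ratio for each of the 9 genes. Irs1 is coloured because its intervals are separate, and all 9 bars end inside the dotted lines that mark 1.5-fold.

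The receptor gene had overlapping intervals and nearly equal levels in the libraries. Insr lies on chromosome 8 from 3150922 to 3279617 in mm9, the build of the files. Its level was 17.8 FPKM in Control (interval 16.6 to 18.9) and 17.6 FPKM in NP (16.5 to 18.7), a log2 ratio of -0.01. All of this lay in 1 transcript row of 9355 nt, Insr-201 in GENCODE M21, with 1372 coding codons. The other Insr transcript rows were 672 and 1675 nt long and were listed at 0 in both libraries. The known splice forms of the receptor, with and without a small exon, had no separate full-length rows, so their shares were not measured. The related receptor Igf1r, which binds insulin-like growth factor 1, was at 0.104 and 0.125 FPKM.

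The docking genes had the lowest ratios of the 9. Irs1, on chromosome 1 from 82229676 to 82287991, measured 3.20 FPKM in Control (2.76 to 3.63) and 1.85 FPKM in NP (1.54 to 2.15), which is 1.73-fold lower with separate intervals. Irs2, on chromosome 8 from 10986980 to 11008458, measured 4.46 FPKM (3.74 to 5.18) and 3.32 FPKM (2.74 to 3.89), 1.35-fold lower with intervals that overlap. Their log2 ratios of -0.56 and -0.34 stood at percentiles 5.85 and 13.0 of tested genes. Added together, docking transcripts were at 7.66 FPKM in Control and 5.16 FPKM in NP, while receptor intervals overlapped. Irs2 was the more abundant of the pair in each library, 1.4 times Irs1 in Control and 1.79 times in NP.

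Each docking gene has 1 transcript row and 1 gene-span row, and the span row can also take reads from introns. The Irs1 transcript row, of 9144 nt in 2 exons with 1231 coding codons, was at 3.09 FPKM (2.66 to 3.52) and 1.75 FPKM (1.45 to 2.06), with a read coverage of 7.16 and 5.20, although NP was covered more deeply. That of Irs2 was at 4.19 FPKM (3.48 to 4.91) and 2.93 FPKM (2.37 to 3.50), so its intervals overlapped only at their ends. The Irs2 span row ran the other way, at 0.270 and 0.381 FPKM, and made up 6.06% and 11.5% of the gene's sum. The deposited Irs2 transcript row is 4024 nt long, against 6323 nt for the same transcript in GENCODE M21. Gm9747, another annotated gene, lies within the last part of Irs1 (mm9 chromosome 1, 82229687 to 82232508) and was at 3.77 FPKM (2.84 to 4.71) and 3.24 FPKM (2.45 to 4.03). The labels do not say whether the libraries keep strand, and reads of this pair were not told apart. With FPKM times length of both genes summed, the pair was 1.46-fold lower in NP.

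The start regions of the docking genes are shown because these were the lowest ratios of the 9 and because Irs2 is a textbook target of FOXO factors. They are RefSeq promoters of GRCm38.p6, from 250 bases before to 50 bases after the start, both on the minus strand: chr1:82291390-82291689 for Irs1 and chr8:11008880-11009179 for Irs2. The capitals mark the reverse complement of CAAAACA, the core of the insulin response sequence known from the Igfbp1 promoter.
Irs1: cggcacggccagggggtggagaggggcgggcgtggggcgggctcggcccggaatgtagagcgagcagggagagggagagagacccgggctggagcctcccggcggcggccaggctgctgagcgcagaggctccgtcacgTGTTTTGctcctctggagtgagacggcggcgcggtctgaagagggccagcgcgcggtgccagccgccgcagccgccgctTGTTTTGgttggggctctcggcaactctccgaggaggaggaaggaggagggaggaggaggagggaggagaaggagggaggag
Irs2: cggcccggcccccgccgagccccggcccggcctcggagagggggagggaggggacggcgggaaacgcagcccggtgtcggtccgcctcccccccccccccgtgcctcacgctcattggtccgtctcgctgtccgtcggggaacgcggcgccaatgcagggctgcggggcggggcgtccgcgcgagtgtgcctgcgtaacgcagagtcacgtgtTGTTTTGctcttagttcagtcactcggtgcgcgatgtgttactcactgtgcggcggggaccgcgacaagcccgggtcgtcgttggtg
The motif began 111 and 32 bases before the start of Irs1 and 37 bases before that of Irs2. In a search of both strands it was found in the promoters of these 2 genes and in none of the other members with an entry, and in 6.28% of 32851 RefSeq promoters of the same length. The E-box CACGTG showed the same pattern, in Irs1 and Irs2 only among the members and in 7.15% of all promoters. In Irs1 it shares 2 bases with the first CAAAACA match. GTAAACA, the FOXO core, was found in 1 of the 2 Akt1 promoters, and in 3.65% of all. CCAAT was found in Irs2, Akt2 and Pik3r1, and in 37.4% of all. In all, 13 promoters of 8 of the 9 genes were searched, and Insr had no entry. The motifs were chosen with earlier results of these data known, and the background shares are per promoter, not per gene. These are matches of letters and not measured binding.

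The PI3K subunit genes differed little as whole genes, but their transcript rows differed in opposite directions. Pik3r1, on chromosome 13 from 102450716 to 102538172, measured 9.85 FPKM in Control (8.90 to 10.8) and 8.38 FPKM in NP (7.52 to 9.23), a log2 ratio of -0.21 with overlapping intervals. Pik3ca, on chromosome 3 from 32296593 to 32367408, measured 6.04 FPKM (5.26 to 6.82) and 6.52 FPKM (5.79 to 7.24), a log2 ratio of 0.09 with intervals that also overlap. The regulatory gene was 1.63 times the catalytic gene in Control and 1.29 times in NP. Of their relatives, the catalytic Pik3cb was at 3.23 and 2.57 FPKM and the regulatory Pik3r2 at 7.95 and 8.22 FPKM, while Pik3r3 was at 0.210 and 0.250 FPKM.

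Pik3r1 makes a long protein, p85 alpha, and short forms that begin inside the gene and lack its first part. The long transcript, Pik3r1-202 with 724 coding codons, measured 8.12 FPKM in Control (7.29 to 8.95) and 5.49 FPKM in NP (4.84 to 6.14), 1.48-fold lower with separate intervals. The short transcript, Pik3r1-201 with 454 codons, measured 1.73 FPKM in Control (1.26 to 2.21) and 2.89 FPKM in NP (2.34 to 3.44), 1.67 times its Control level and also separate. The long form thus went from 82.4% to 65.5% of the gene's FPKM. Both are annotated with support level 1, the best grade of GENCODE. The row lengths in the files, 6915 and 5843 nt, differ from those in GENCODE M21, 7113 and 2923 nt.

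What sets these forms apart is the first coding stretch. The short form opens with 106 coding bases that are absent from the long one (GRCm38, minus strand, chr13:101692183-101692288), shown beside the first 106 coding bases of the long form (chr13:101757554-101757659). The capitals mark the start codons.
Pik3r1-201: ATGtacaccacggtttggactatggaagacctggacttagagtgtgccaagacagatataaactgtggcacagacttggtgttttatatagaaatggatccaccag
Pik3r1-202: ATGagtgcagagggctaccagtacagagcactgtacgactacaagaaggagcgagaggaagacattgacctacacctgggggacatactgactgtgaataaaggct
Each form also has a RefSeq promoter of its own in GRCm38.p6, on the minus strand. Capitals are not used, since neither CAAAACA nor GTAAACA was found in them.
Long form, chr13:101768168-101768467: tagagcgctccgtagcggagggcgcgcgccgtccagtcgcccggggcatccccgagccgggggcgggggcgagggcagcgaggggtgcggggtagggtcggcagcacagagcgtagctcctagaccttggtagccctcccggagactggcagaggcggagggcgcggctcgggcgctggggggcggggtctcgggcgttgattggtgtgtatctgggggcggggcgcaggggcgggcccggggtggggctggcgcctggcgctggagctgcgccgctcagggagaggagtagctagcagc
Short form, chr13:101692581-101692880: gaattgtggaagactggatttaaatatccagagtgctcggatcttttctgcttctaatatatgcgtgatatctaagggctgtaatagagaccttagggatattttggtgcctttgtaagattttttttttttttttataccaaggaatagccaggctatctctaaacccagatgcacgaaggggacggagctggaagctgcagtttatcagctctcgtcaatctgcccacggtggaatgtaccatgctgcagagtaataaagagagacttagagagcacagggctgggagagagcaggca
The promoter of the long form holds 75.7% G and C with 34 CpG dinucleotides, that of the short form 43.7% with 6. The medians over all promoters are 52.7% and 7.

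Pik3ca showed the same kind of shift between its 2 transcript rows above 0. Pik3ca-203, with 1068 coding codons, measured 3.65 FPKM in Control (3.06 to 4.23) and 5.20 FPKM in NP (4.58 to 5.83), 1.43 times its Control level, and is annotated with support level 5, the weakest grade. Pik3ca-202 starts 122 codons later and so lacks the N-terminal part, which binds the regulatory subunit. It was at 2.29 FPKM (1.77 to 2.81) and 1.31 FPKM (0.937 to 1.69), 1.74-fold lower. Intervals were separate for both rows, and Pik3ca-203 went from 60.4% to 79.8% of the gene's FPKM. Pik3ca-201, which also has 1068 coding codons but support level 1, was listed at 0 in both libraries. All 6171 bases of Pik3ca-202 are also in Pik3ca-203, whose 518 further bases include this coding stretch of 142 bases (GRCm38, plus strand, chr3:32436416-32436557), the internal sequence that tells them apart.
Pik3ca-203: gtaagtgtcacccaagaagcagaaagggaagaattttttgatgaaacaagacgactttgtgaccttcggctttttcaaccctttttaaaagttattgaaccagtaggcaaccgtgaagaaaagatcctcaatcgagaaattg
The whole-gene row of Pik3ca read 0.103 FPKM in Control, while NP listed it at 0.

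The AKT genes had overlapping intervals. Akt1, the widely expressed form, on chromosome 12 from 113892032 to 113913095, measured 23.9 FPKM in Control (21.1 to 26.7) and 20.2 FPKM in NP (18.3 to 22.1), a log2 ratio of -0.23, which was 0.23 by its highest row alone. Akt2, the form most tied to insulin action on glucose, on chromosome 7 from 28376571 to 28425845, measured 19.8 FPKM (17.7 to 21.9) and 17.8 FPKM (16.0 to 19.7), a log2 ratio of -0.14. Akt1 was 1.21 times Akt2 in Control and 1.13 times in NP. Pdpk1, the kinase that activates AKT, was at 8.07 and 7.52 FPKM.

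The lower sum of Akt1 rested on 1 row. Akt1-201, with 480 coding codons, measured 17.0 FPKM in Control (15.1 to 18.9) and 20.2 FPKM in NP (18.3 to 22.1). Akt1-205 measured 6.91 FPKM in Control (4.91 to 8.91), and NP listed it at 0 with an upper limit of 0.157 FPKM. Akt1-205 also has support level 5 and lacks an exon of 129 bases (43 codons, from codon 277) that encodes the activation loop of the kinase. That exon (GRCm38, minus strand, chr12:112657068-112657196) is the coding sequence inside the bounds of Akt1-205 by which the forms differ.
Akt1-201: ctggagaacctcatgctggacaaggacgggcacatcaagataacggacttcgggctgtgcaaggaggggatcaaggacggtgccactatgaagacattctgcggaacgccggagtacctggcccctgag
All 1342 bases of Akt1-205 also lie in Akt1-201, so reads within these bases and away from that exon's junctions can belong to either. A further 1348 bases are in Akt1-201 only. Weighted by row length, which measures fragments rather than molecules, Akt1 was at 55.0 in Control and 54.3 in NP (FPKM times kilobases), a ratio of 0.987. Over the 9 genes this ratio ran from 0.567 for Irs1 to 1.11 for Pik3ca. The Akt2 rows kept their shares: Akt2-201 held 66.1% and 64.1% of the gene's FPKM, Akt2-214 18.0% and 19.5%, and Akt2-205 14.9% and 15.2%. These 3 Akt2 transcripts each have 481 coding codons.

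Shifts between rows were common across the libraries. Of the 9 genes, 5 had at least 2 transcript rows with a mean of 1 FPKM or more, and in 2 of these, Pik3r1 and Pik3ca, 1 row was higher and another lower in NP with separate intervals for each. The same held for 22.5% of 2525 tested genes with such rows, and for 21.7% of the 1712 within the level range of the 9 genes. In 0 of the 5 did 1 row reach 1.5-fold higher and another 1.5-fold lower by plain FPKM, against 19.1% of all and 21.8% in the level range. A row share moved by at least 10 percentage points in 3 of the 5, Pik3r1, Pik3ca and Akt1, against 56.7% and 63.2%. By coverage times length, with the gene-span row counted in, the shift was 16.9 points for Akt1-201, 27.8 for Pik3ca-203 and -17.6 for Ptpn1-201. By FPKM these shifts were 28.9, 19.4 and -8.44. Ptpn1 was thus past 10 points too, but its span row went from 0% to 13.1% of bases. Over transcript rows alone, Ptpn1-201 shifted by -7.41 points by FPKM. The Pik3ca span row went from 15.9% to 0% of bases. Transcript rows of a gene are estimated from shared reads, so their values are not independent. Shifts of this kind are thus not particular to the 5 genes.

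**Figure D3:**
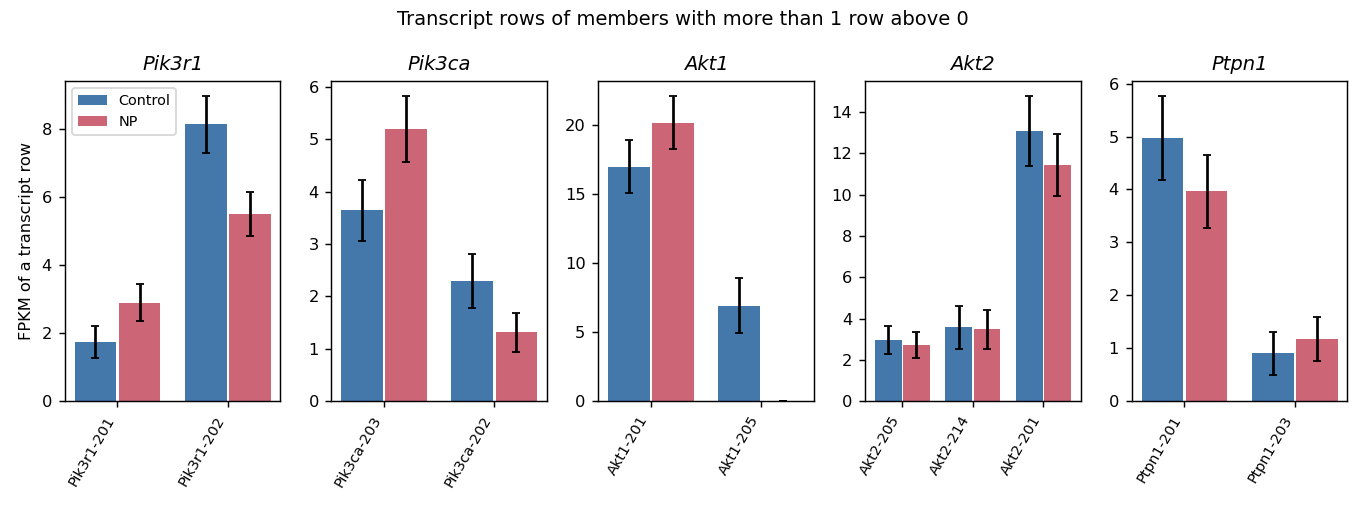
FPKM of the transcript rows above 0 for the 5 genes with more than 1 such row, in Control and NP (1 library each), with the deposited 95% interval, on axes that start at 0. In Pik3r1 and Pik3ca 1 row is higher and the other lower in NP, Akt1-205 is listed at 0 in NP, and the 3 Akt2 rows overlap.

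The inhibitor genes had overlapping intervals. Ptpn1, on chromosome 2 from 167757557 to 167804885, measured 5.87 FPKM in Control (4.99 to 6.76) and 5.20 FPKM in NP (4.40 to 6.0), a log2 ratio of -0.15. Its coding transcript Ptpn1-201 was at 4.97 and 3.96 FPKM, and Ptpn1-203, annotated as noncoding, at 0.901 and 1.17 FPKM, both with overlapping intervals. Grb14, on chromosome 2 from 64750533 to 64863044, measured 23.3 FPKM (20.8 to 25.8) and 21.4 FPKM (19.1 to 23.7), a log2 ratio of -0.12. Nearly all of it lay in Grb14-201, with 538 coding codons, at 23.1 and 21.2 FPKM. Grb14 was 1.31 times the receptor gene in Control and 1.22 times in NP. Grb10, its close relative, was at 0.510 and 0.535 FPKM, and Ptpn2, the nearest relative of Ptpn1, at 7.46 and 7.31 FPKM.

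A wider list of 75 other genes of the pathway was close to the background. Of these, 14 were below the filter and 1, Hras, was not found under this name. Among the 14, Phlpp2 had separate intervals, at 1.24 FPKM (0.974 to 1.51) in Control and 0.361 FPKM (0.227 to 0.495) in NP, 3.44-fold lower. Without a filter on low values, 3 genes of the list were 1.5-fold lower, against 2.52% of all genes. On the log2(FPKM + 1) scale, of the 60 that passed the filter, 2 were 1.5-fold lower and 0 were 1.5-fold higher in NP, against 5.33% and 3.6% of all tested genes, and the median was -0.05, against -0.03. The 2 lower genes were Mapk8, the kinase JNK1, at 7.99 FPKM (6.29 to 9.69) and 4.21 FPKM (3.41 to 5.02), and Mapkap1, a subunit of mTOR complex 2, at 18.6 FPKM (16.2 to 20.9) and 11.7 FPKM (10.2 to 13.3). Mapkap1 overlaps Gm13408, which was at 52.7 and 40.1 FPKM. Mlst8, a subunit of both mTOR complexes, was 1.55 times its Control level by plain FPKM, at 1.70 FPKM (1.21 to 2.19) and 2.64 FPKM (2.07 to 3.21), with overlapping intervals. Mtor itself was at 11.4 and 10.3 FPKM.

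Intervals were separate for 8 of these 60 genes, 5 lower and 3 higher in NP, against 9.58% and 7.73% of all tested genes, and those named here were named after their values were seen. Among the lower were Mapk8, Mapkap1, Gsk3b and the receptor phosphatase Ptpra, and the higher were Ahsg, Cblb and Prkci. Gsk3b, a kinase that restrains glycogen synthesis, was at 5.67 FPKM (5.08 to 6.26) and 4.23 FPKM (3.76 to 4.71), whereas its relative Gsk3a was at 22.4 FPKM in each. Foxo1, the main FOXO factor of liver insulin action, was at 7.83 and 7.65 FPKM. By role, medians ran from -0.16 for the output genes, with 6 of 6 tested below 0, to 0.08 for the inhibitors, with 4 of 10. Among these output genes Gsk3a was at -0.002 and Foxo1 at -0.03. Between these extremes, 7 of 13 mTOR genes and 8 of 11 tested RAS and MAPK genes were below 0. Over all 60 the count was 37, against 54.4% of all tested genes. Of the members that inhibit, Ptpn1 and Grb14 were both below 0. Cblb, a ubiquitin ligase, was at 2.16 FPKM (1.77 to 2.56) and 3.22 FPKM (2.67 to 3.78). Socs3, an inhibitor induced by cytokines, was at 5.81 FPKM in each library.

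**Figure D4:**
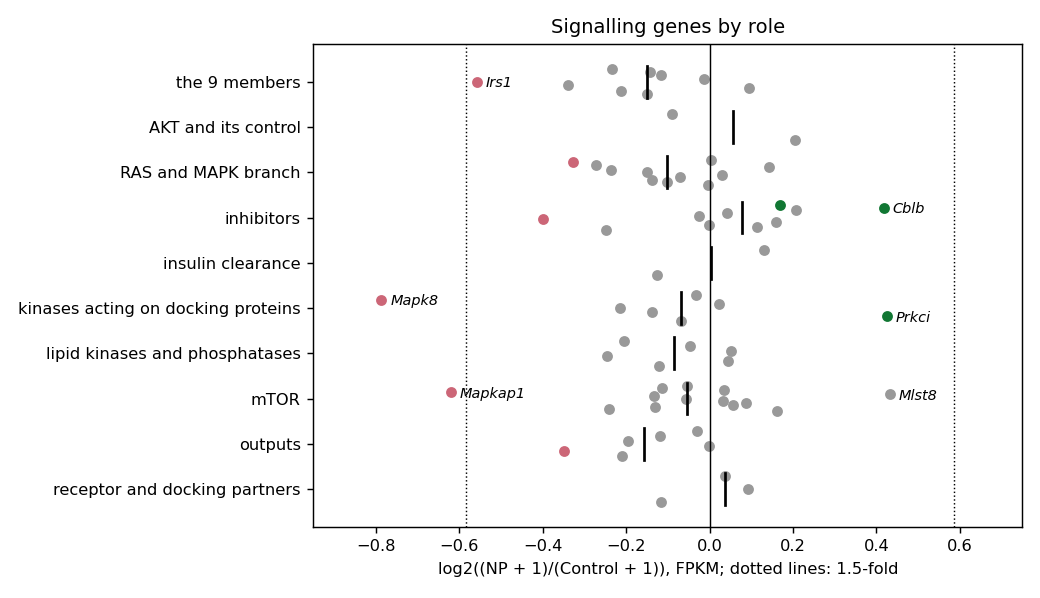
log2((NP + 1)/(Control + 1)) of the 9 genes and of the 60 tested genes of the wider list, by role; red points are lower and green points higher in NP with separate intervals, grey points have overlapping ones, and black bars are medians. Mapk8 and Mapkap1 lie beyond the dotted 1.5-fold line on the lower side, and no point lies beyond it on the higher side.

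Genes known to respond to insulin in liver were read in separate lists, those that insulin lowers and those that it raises. In neither list did every gene have separate intervals. Of 6 genes that insulin lowers, 3 were higher in NP with separate intervals and 0 were lower, against 7.73% and 9.58% of all tested genes. This background is not matched for level, and highly expressed genes have narrow intervals for their value. Those of G6pc were separate at a ratio of 1.15. Of 5 marker genes of hepatocytes, 4 were also higher in NP with separate intervals and 0 were lower. On the log2(FPKM + 1) scale 1 of the 6, Pdk4, was 1.5-fold higher and 0 were 1.5-fold lower, against 3.6% and 5.33%. Pdk4, which shuts off pyruvate oxidation, was at 7.92 FPKM (6.86 to 8.97) and 13.7 FPKM (12.3 to 15.1). Igfbp1, a secreted protein that binds insulin-like growth factors, was at 62.1 FPKM (57.2 to 67.1) and 80.4 FPKM (74.8 to 86.1), and G6pc, the last enzyme of glucose release, at 247 and 283 FPKM. Pck1, at 1406 and 1376 FPKM, had overlapping intervals, as had Ppargc1a, at 1.27 and 1.34 FPKM, and Sesn3, at 2.15 and 2.34 FPKM. Irs2, itself a gene that insulin lowers, was not in this list and was at 4.46 and 3.32 FPKM, a ratio opposite in sign to that of Igfbp1.

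Of the 6 genes that insulin raises, 5 passed the filter and 1 was lower with separate intervals, against the same 9.58%. That gene was Srebf1, which drives transcription of lipid synthesis genes, at 14.0 FPKM (12.5 to 15.4) in Control and 5.33 FPKM (4.63 to 6.03) in NP. Its span overlaps Rai1, at 0.208 and 1.92 FPKM, and how reads were divided between them was not tested. Of the enzymes of fatty acid synthesis, Acly was at 16.5 and 17.5 FPKM and Fasn at 7.04 and 6.54 FPKM. The growth factor gene Igf1 was at 364 and 366 FPKM. Pnpla3, at 0.190 and 0.116 FPKM, lay below the filter.

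**Figure D5:**
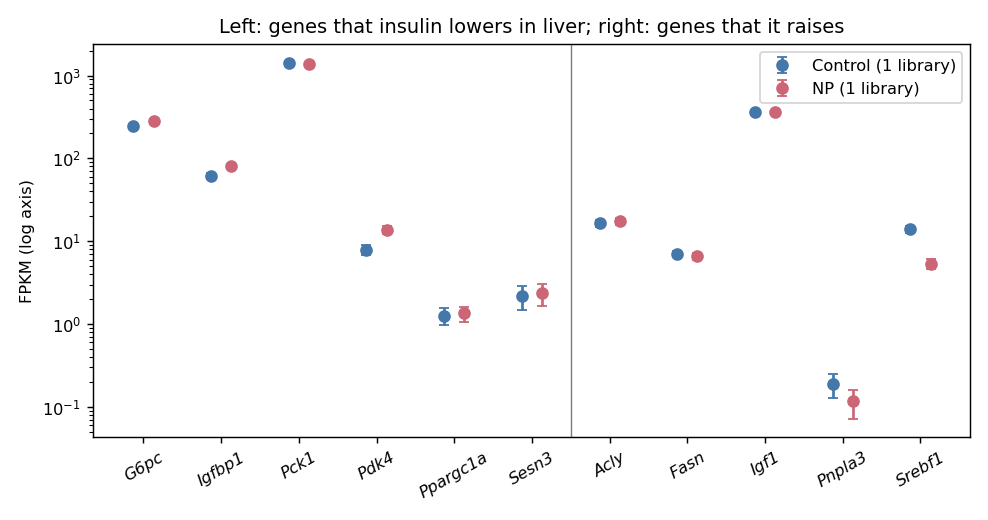
FPKM (log axis) of 6 genes that insulin lowers in liver (left) and 5 that it raises (right), in Control and NP, 1 library each, with the deposited 95% interval. Pdk4 and Igfbp1 are higher and Srebf1 lower in NP, while Acly, Fasn and Igf1 overlap.

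The libraries also differed in depth and in markers of other liver cells. Median coverage per FPKM was 2.27 in Control and 2.91 in NP, so NP was 1.28 times as deep, and the upper half-width of the interval for the 9 genes ran from 6.32% (Insr in NP) to 17.3% (Irs2 in NP) of the value. All 5 hepatocyte markers had a ratio above 0, with a summed level of 25218 FPKM in Control and 34994 FPKM in NP, mostly of Alb. All 7 sinusoidal endothelial markers had a ratio below 0 (summed 89.3 and 68.0 FPKM), against 54.4% of all tested genes. So had all 5 tested of 7 Kupffer cell and macrophage markers (39.4 and 21.7 FPKM) and all 4 tested of 6 stellate cell markers (88.1 and 71.6 FPKM). The largest members of these sums were Clec4g (44.6 and 30.6 FPKM), Clec4f (18.4 and 7.63 FPKM) and Dcn (70.8 and 57.7 FPKM). Stab1 and Pecam1 were each at -0.04. The 1 tested cholangiocyte marker, Sox9, and the 1 tested lymphocyte marker, Cd3g, had ratios above 0, at 0.17 and 0.28. In bulk tissue fewer cells of a type and less RNA per cell cannot be told apart. The part of these shifts in the lower values of Irs1, Irs2 and the other members was not tested. The pancreas markers Ins2 and Prss1, the muscle markers Ckm and Myh4 and the adipocyte marker Lep were listed at 0 in both libraries. The other pancreas marker, Cpa1, was at 1.02 FPKM in Control (0.450 to 1.59) and 0.0649 FPKM in NP (0 to 0.252), with separate intervals. The other adipocyte markers were low, Adipoq at 0.0183 and 0.0820 FPKM, and Plin1 at 0.0524 FPKM in NP where Control lists it at 0.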

How the data were processed

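RNA from frozen liver was extracted with Trizol and made into libraries with an Illumina TruSeq RNA kit, per the labels' protocols. TopHat2 2.1.0, Cufflinks 2.2.1.0 and the mm9 build are named in the submitters' processing notes, without their settings. The authors deposited FPKM values with a 95% interval, and read coverage, a signal not scaled to library size, as the file headers of these Cufflinks tables show. Neither strandedness nor read length is stated in the labels.

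Gene levels are FPKM sums over every row with that identifier, with interval half-widths combined in quadrature, which leaves out covariance between rows and the upper limit of rows at 0. Start positions were converted to count from 1. Tested genes (10533) had a mean of at least 1 FPKM, no row with a failed estimate, no small RNA name and 1 or more transcripts reaching 300 nt. Ratios used a pseudocount of 1 FPKM, and a size of 1.5-fold was the call rule. All 9 members, named relatives, list genes past 1.5-fold by plain FPKM and all insulin targets were to be named, and some of these are not reported here. Members, lists and motifs were chosen with earlier results of these data known. Transcript names and coding lengths came from GENCODE M21 (GRCm38), matched by identifier for 47 of 51 transcript rows, 44 of them with the same length. Coordinates were not converted between builds. The size rule was tested on simulated data. Python 3.11.15, pandas 2.3.3, numpy 2.4.6 and matplotlib 3.10.9 were used.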

Additional observations from a re-analysis of the deposited data

How the results depend on the processing

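No paired analysis was possible because each group has 1 library, and leaving out a library was not possible either. Irs1 was 1.5-fold lower in NP under 3 alternatives to the scale, which give a count of 1 in place of 0 of the 9 genes: a pseudocount of 0.1 FPKM, no pseudocount, and rescaling of both libraries to a common, higher total, against which the pseudocount weighs less. By FPKM times length over transcript rows, which has no pseudocount and was added after the data were examined, Irs1 was past 1.5-fold too, at -0.82. Under the pseudocount of 0.1 FPKM and without one, 1 gene of the wider list, rather than 0, was 1.5-fold higher. With a 2-fold size rule the wider list had 0 lower genes. Across all tested genes, 1.88% were then lower and 1.14% higher, and without a filter on low values 2.52% and 1.65% were past 1.5-fold. Counting rows in opposite directions by separate intervals instead of 1.5-fold, a version added after the data were examined, gave 2 genes rather than 0.

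The log2 ratio of Irs1 ran from -0.82 to -0.54 and that of Irs2 from -0.51 to -0.32 over the alternatives, all below 0. With only the highest row per gene, the ratio of Akt1 was 0.23, that of Pik3r1 -0.49 and that of Pik3ca 0.42, and the wider list median was 0.00. With NP scaled to a median ratio of 0, Insr was at 0.01 and 7 of the 9 genes were lower. With a mean of at least 5 FPKM, 7 of the 9 genes remained, without Irs1 and Irs2. Half-widths of the intervals were 13.5% to 17.3% of the value for Irs1 and Irs2 and 15.1% to 15.4% for Ptpn1, and they hold no spread between animals.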
